A study of Mus musculus with 26 samples.

Results

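Nlrp4c and Oosp3 are oocyte genes whose transcripts differed in opposite directions between chromatin stages of fully grown germinal vesicle (GV) oocytes of the mouse. Both were selected on measured values: each has a transcript in the study's list of transcripts that separate the stages. That list was drawn up from differences between these oocytes, limited to genes that an earlier bulk RNA-seq comparison of the stages had also reported. The 2 members, transcripts TCONS_00089277 (Nlrp4c) and TCONS_00052900 (Oosp3), are among 38540 transcripts in the count table and 16657 that could be tested. Their difference between stages is therefore given as a description without a test, and the members are tested only in comparisons that the choice did not use. Most other genes named below come from lists that the study also chose by stage on these oocytes, so their adjusted p-values for stage are no independent evidence.

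The oocytes came from 12-week-old C57Bl6/Babr mice, had their cumulus cells removed, and were stained with Hoechst to score the chromatin around the nucleolus. In non-surrounded nucleolus (NSN) oocytes no ring of chromatin was seen, in surrounded nucleolus (SN) oocytes the ring was complete, and in an intermediate oocyte it was partial. Polyadenylated RNA was sequenced from 9 NSN oocytes (5 of mouse C, 4 of mouse D), 16 SN oocytes (9 of C, 7 of D) and 1 intermediate oocyte of mouse D, all untreated. The letter in each oocyte's name was taken as its mouse, since the labels give 2 mice and 2 letters without saying so outright. Oocytes of a mouse share that animal, so p-values measure the spread between oocytes and a difference between the letters compares these 2 animals only. Total counts were 1886716 to 2983344 per NSN oocyte, 1358383 to 3647827 per SN oocyte and 2163635 in the intermediate oocyte. Values are CPM, the count of a transcript divided by the total of its oocyte and multiplied by 1000000. They are shares of the RNA counted, so the amount of RNA per oocyte was not measured.

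The NSN to SN transition takes place at the end of oocyte growth, when transcription of the oocyte genome ceases and the oocyte comes to rely on stored maternal mRNA. Nlrp4c belongs to the NLR family with a pyrin domain, several members of which, the Nlrp4 subfamily among them, are expressed mainly in oocytes and early embryos. Oosp3 belongs to the family of oocyte secreted proteins, which resemble the placental protein PLAC1. Expression outside oocytes was not analysed here, so the oocyte specificity of both genes is background knowledge.

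The counted transcripts carry no coordinates in the files, so the positions given are those of the genes with the same symbol. In the GENCODE M21 annotation of GRCm38, the build to which the reads were aligned, Nlrp4c (ENSMUSG00000034690) is a protein-coding gene on the plus strand of chromosome 7, from 6045161 to 6105150. No other annotated gene overlaps it, and the nearest protein-coding gene to its right is Zfp787, 26340 bases away. Oosp3 (ENSMUSG00000055933) lies on the plus strand of chromosome 19, from 11697055 to 11711874, and overlaps Gm19224 on the other strand. Its paralogues lie beside it on the minus strand, Oosp1 from 11667460 to 11691150 and Oosp2 from 11647279 to 11660559. The use of strand in the counting is not given in the sources used here, so reads from the stretch that Oosp3 shares with Gm19224 cannot be told apart. None of the 150-base words of the annotated Nlrp4c, Oosp3 and Oosp1 transcripts, the length of the sequenced reads, occurred in transcripts of another gene. Among words of 50 bases, 10.7% of those of Nlrp4c also occurred in 8 other genes, led by its paralogue Nlrp4e, and 1.46% of those of Oosp3 occurred in Gm19224. How reads with several matches were counted is not given in the sources used here.

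The bases just before the RefSeq start are shown for Nlrp4c, the member with lower CPM in SN, and for Oosp1, the neighbour of Oosp3 that rose with it. The start regions of genes with opposite differences can thus be read side by side. Among the members, 1 was matched in the RefSeq promoter table (GRCm38.p6). The windows are chr7:6044911-6045160 on the plus strand and chr19:11691052-11691301 on the minus strand, written 5′ to 3′ and ending at the base before the RefSeq start. For Nlrp4c this is also the GENCODE start, whereas the last 99 bases of the Oosp1 window lie inside the longer GENCODE gene. Capitals mark CCAAT or its reverse complement ATTGG in Nlrp4c and the E-box letters CANNTG in Oosp1.
Nlrp4c: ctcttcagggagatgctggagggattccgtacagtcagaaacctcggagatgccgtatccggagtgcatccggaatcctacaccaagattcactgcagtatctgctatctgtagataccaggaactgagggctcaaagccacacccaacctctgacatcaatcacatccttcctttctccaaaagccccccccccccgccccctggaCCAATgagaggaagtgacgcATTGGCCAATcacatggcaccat
Oosp1: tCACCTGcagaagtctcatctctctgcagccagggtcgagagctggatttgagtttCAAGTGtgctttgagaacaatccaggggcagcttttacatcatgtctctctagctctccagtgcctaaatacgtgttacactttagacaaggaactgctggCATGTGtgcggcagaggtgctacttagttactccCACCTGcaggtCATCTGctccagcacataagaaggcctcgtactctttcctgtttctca

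CCAAT, a box found in many promoters, was searched on both strands and occurred 3 times in the Nlrp4c window, starting 43, 23 and 18 bases before the RefSeq start. It did not occur in the Oosp1 window. Of 32851 promoter windows of the same length, 33.8% held CCAAT at least once and 2.79% at least 3 times. CANNTG, which reads the same on both strands, occurred 5 times in the Oosp1 window, starting 249, 194, 93, 59 and 48 bases before the RefSeq start. Those at 93, 59 and 48 bases lie in the 99 bases inside the longer GENCODE gene, so not all 5 are upstream of it. In the Nlrp4c window CANNTG occurred 1 time, where it shares no base with CCAAT. It was present in 66.2% of all windows, and 1.15% held it at least 5 times. The homeobox letters TAATTA occurred in neither window and in 4.84% of all. These matches are descriptions of the sequence and were not tested as sites.

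Nlrp4c was at 29.0 to 53.6 CPM in NSN oocytes, with a median of 44.6, and at 12.1 to 29.6 CPM in SN oocytes, with a median of 19.7. In NSN oocytes of mouse C it stood at 45.0, 45.2, 44.6, 37.3 and 29.0 CPM, and in those of mouse D at 40.8, 53.6, 38.2 and 46.1 CPM. In SN oocytes the lowest, median and highest values were 15.4, 20.97 and 27.96 CPM in mouse C and 12.1, 18.8 and 29.6 CPM in mouse D. The stages met at a single oocyte on each side: 15 of 16 SN oocytes were below every NSN oocyte, and SN oocyte D-16 (29.6 CPM) was just above NSN oocyte C-12 (29.0 CPM). These values rest on 54 and 72 counts, and their 95% Clopper-Pearson intervals, which cover counting error only, were 22.2 to 38.6 and 22.7 to 36.5 CPM.

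Nlrp4c averaged 42.2 ± 6.92 CPM over the 9 NSN oocytes (± SD) and 19.9 ± 4.64 CPM over the 16 SN oocytes. In the edgeR fit its log2 fold change, SN minus NSN, was -1.02 (SE 0.13), a level in SN of 0.493 times that in NSN. For comparison, 8.02% of the transcripts tested were called lower in SN, and 0.414% had ranges that did not overlap between the stages, which those of Nlrp4c did.

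Oosp3 was at 203 to 862 CPM in NSN oocytes, with a median of 488, and at 481 to 1220.2 CPM in SN oocytes, with a median of 886. In NSN oocytes of mouse C it stood at 581, 862, 854, 300.1 and 488 CPM, and in those of mouse D at 474, 203, 510 and 323 CPM. In SN oocytes the lowest, median and highest values were 481, 736 and 1152 CPM in mouse C and 541, 1125 and 1220.2 CPM in mouse D. The stages overlapped widely, since 9 of 16 SN oocytes were above every NSN oocyte and 4 of 9 NSN oocytes were below every SN oocyte. The overlap was mostly among oocytes of mouse C, which held 6 of the 7 SN oocytes within the NSN range, the other being D-16.

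Oosp3 averaged 511 ± 230 CPM over the 9 NSN oocytes (± SD) and 894 ± 251 CPM over the 16 SN oocytes. Its log2 fold change, SN minus NSN, was 0.85 (SE 0.19), a level in SN of 1.80 times that in NSN. Of all transcripts tested, 5.44% were called higher in SN.

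**Figure D1:**
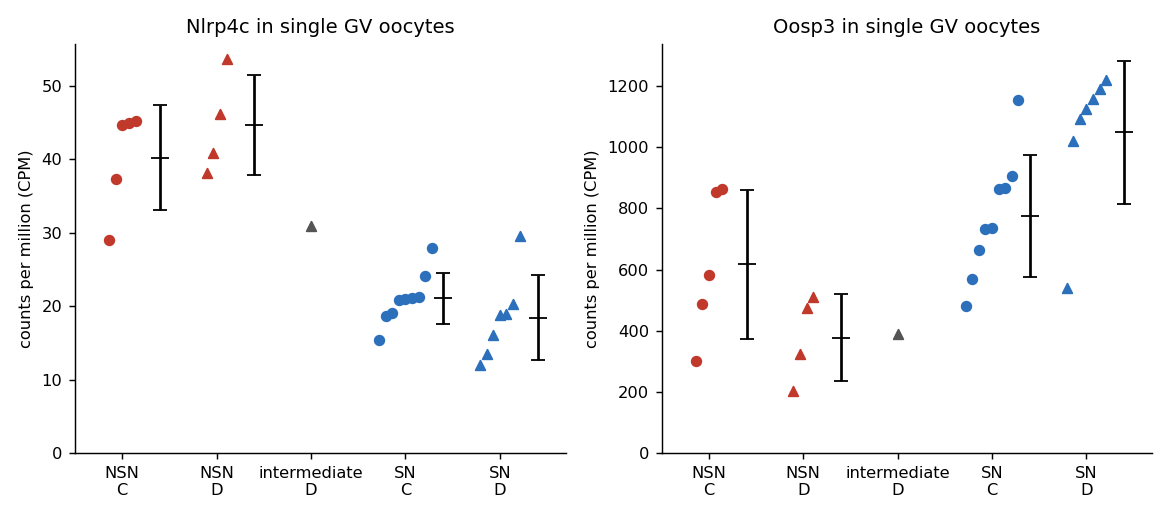
CPM (vertical axis) of Nlrp4c (left) and Oosp3 (right) in each oocyte, by stage and mouse (horizontal axis); circles are oocytes of mouse C, triangles those of mouse D, and bars the mean ± SD. SN oocytes lie below NSN oocytes for Nlrp4c except for D-16 at 29.6 CPM, and for Oosp3 the NSN and SN oocytes of mouse C overlap.

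The spread among oocytes of a stage differed between the genes on the scale of the coefficient of variation (CV). For Nlrp4c the CV of the CPM was 16.4% in NSN and 23.3% in SN oocytes. Counting error alone gives a CV of 9.71% and 16.2% at 72 to 136 and 21 to 100 counts per oocyte. As the squares of CVs add, 13.2% and 16.7% lay beyond counting. In SN oocytes of mouse C the CV of Nlrp4c, 16.6%, was about that of counting alone, 15.9%. By this measure alone little spread lay beyond counting among these 9 oocytes, which was not tested. In the same oocytes log2 CPM of Nlrp4c had r = 0.76 with log2 total counts, so its level was not free of a trend with depth. No molecular identifiers were used, so the counting part takes each count as a separate molecule. Oosp3 was covered by 516 to 2547 counts in NSN and 777 to 3750 counts in SN oocytes. Its CV was 45.0% in NSN and 28.01% in SN oocytes, against 3.04% and 2.45% from counting. The level of Oosp3 thus varied by 4.24 times from the lowest to the highest NSN oocyte and by 2.54 times among SN oocytes.

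The comparison of the mice was not used to choose the members. With stage in the model, the log2 difference of mouse D minus mouse C was -0.09 (SE 0.13) for Nlrp4c and 0.02 (SE 0.18) for Oosp3. Neither passed the edgeR quasi-likelihood test after Benjamini-Hochberg adjustment over all transcripts (adjusted p = 0.882 and 0.981), and approximate 95% intervals were -0.35 to 0.18 and -0.34 to 0.39. The same test called 6 transcripts, or 0.036% of those tested. For Oosp3, the near-zero difference is an average of opposite differences within the stages.

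Within NSN oocytes, Oosp3 was lower in mouse D (378 ± 142 CPM, SD, n = 4) than in mouse C (617 ± 242 CPM, SD, n = 5). Within SN oocytes it was higher in mouse D (1049 ± 234 CPM, SD, n = 7) than in mouse C (775 ± 200 CPM, SD, n = 9). On the scale of log2(CPM + 1), mouse D minus mouse C was -0.69 in NSN (two-sided exact permutation test, p = 0.127, adjusted over 4 tests 0.254; the smallest p this design allows is 0.00794). In SN it was 0.44 (exact permutation p = 0.0469, adjusted p = 0.187). For Nlrp4c the differences were 0.16 in NSN (exact permutation p = 0.397, adjusted p = 0.397) and -0.22 in SN (exact permutation p = 0.199, adjusted p = 0.265), so none of the 4 passed the threshold of 0.05 after adjustment.

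Both values in SN oocytes depended on oocyte D-16. It had the highest Nlrp4c and the lowest Oosp3 (541 CPM) of the 7 SN oocytes of mouse D, whose other Oosp3 values were 1019 CPM or more. Without it, mouse D minus mouse C in SN became 0.59 for Oosp3 (exact permutation, adjusted p = 0.0120) and -0.33 for Nlrp4c (exact permutation, adjusted p = 0.0480). D-16 was picked out by these same values, and of the single oocytes left out it gave the lowest adjusted p for both genes. These p-values are therefore descriptions and no evidence of a difference between the mice. With D-16 or without it, Nlrp4c was lower and Oosp3 higher in SN oocytes of mouse D than of mouse C, by means of log2(CPM + 1). The log2 fold changes of SN minus NSN without D-16 were -1.08 for Nlrp4c and 0.87 for Oosp3.

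Ordered by mean level, Nlrp4c ran from NSN oocytes of mouse D (44.7 ± 6.80 CPM, SD, n = 4) to NSN of mouse C (40.2 ± 7.08, n = 5), SN of mouse C (21.1 ± 3.51, n = 9) and SN of mouse D (18.5 ± 5.75, n = 7). The order of Oosp3 was the reverse, with SN of mouse D highest and NSN of mouse D lowest. For both genes, no difference between neighbours of the same stage in this order passed the tests above with all oocytes kept. SN and NSN oocytes of mouse C, neighbours in the order of both genes, overlapped for Oosp3. For Nlrp4c they stood at 27.96 CPM or less and at 29.0 CPM or more. The share of all transcripts apart in this mouse was not determined, and Nlrp4c was chosen by stage, so this is a description.

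Within mouse C the log2 fold change of SN minus NSN was -0.86 (SE 0.17) for Nlrp4c and 0.37 (SE 0.22) for Oosp3. Within mouse D it was -1.23 (SE 0.20) and 1.52 (SE 0.26). The difference of the stage effects, mouse D minus mouse C, was 1.14 (SE 0.33) for Oosp3, a ratio of 2.21 between the folds. Its unadjusted edgeR p was 0.00162 and it did not pass after adjustment over all transcripts (adjusted p = 0.757). For Nlrp4c the difference was -0.37 (SE 0.27, edgeR adjusted p = 0.871), and -0.72 among oocytes within the NSN range of totals (edgeR adjusted p = 0.721). No transcript was called for this interaction by edgeR (0 of 16657, or 0%; 996 had an unadjusted p under 0.05) or by DESeq2 (0, with 1077 at an unadjusted p under 0.05).

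**Figure D2:**
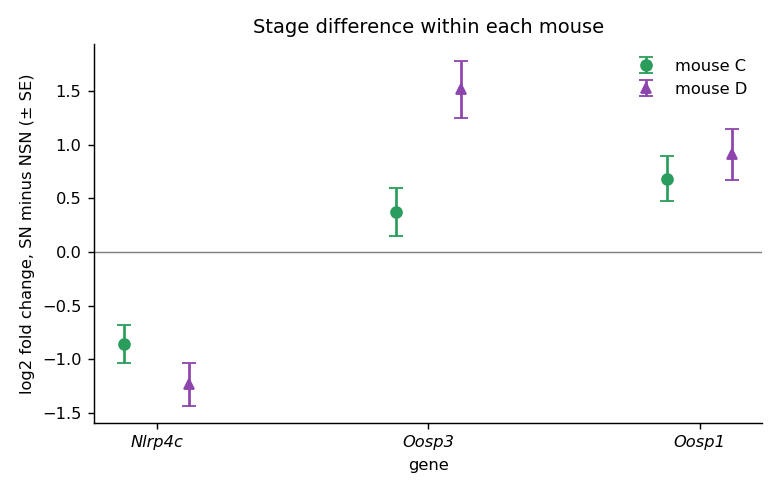
Log2 fold change, SN minus NSN (vertical axis), of Nlrp4c, Oosp3 and Oosp1 (horizontal axis) within mouse C (circles) and mouse D (triangles), with bars of ± 1 SE. Oosp3 stands at 0.37 in mouse C and 1.52 in mouse D, while Oosp1 stands at 0.69 and 0.91.

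The intermediate oocyte, D-15, had 31.0 CPM of Nlrp4c (67 counts, 95% Clopper-Pearson interval 24.0 to 39.3), above all 16 SN oocytes and below 8 of the 9 NSN oocytes. Its 391 CPM of Oosp3 (846 counts, interval 365 to 418) were below all 16 SN oocytes and above 3 of the 9 NSN oocytes. For both genes the value was on the NSN side of the SN oocytes, and the Nlrp4c interval reached into both stages. This is a single oocyte and carries no replicate check.

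The members were also placed along the main axis of variation. The first principal component of the 500 most variable transcripts, computed without Nlrp4c, Oosp3 and Oosp1, held 35.4% of the variance, with NSN oocytes from -26.5 to -10.9, SN oocytes from -2.26 to 21.05 and D-15 at 2.64. Among NSN oocytes, log2 CPM of Oosp3 was higher along the component (Pearson's r = 0.85, Spearman's rho = 0.73, n = 9), also without the 2 oocytes farthest from the median of Oosp3 (r = 0.73). Among SN oocytes r was 0.05 (rho = 0.02, n = 16) and -0.36 without the farthest 2. For Nlrp4c r was -0.28 in NSN (rho = -0.40, n = 9) and -0.30 in SN oocytes (rho = -0.31, n = 16). Without the 2 oocytes farthest in Nlrp4c these became -0.65 and -0.25. Oocyte D-16 lay at 13.05 on the component, well inside the SN oocytes. All values of an oocyte share its library and depth, and these correlations are descriptions.

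**Figure D3:**
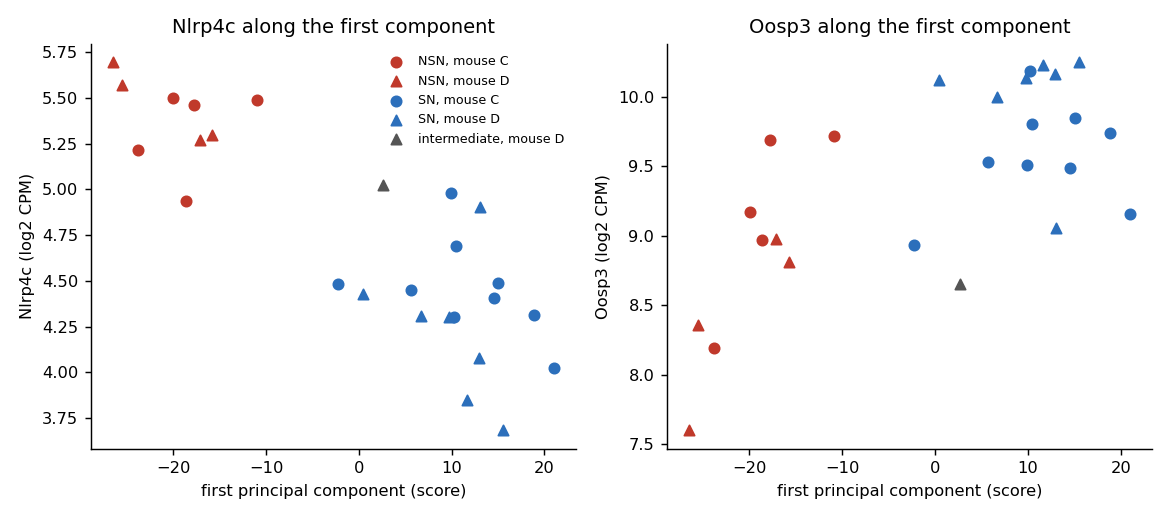
Log2 CPM (vertical axis) of Nlrp4c (left) and Oosp3 (right) against the score on the first principal component (horizontal axis), 1 point per oocyte. Among NSN oocytes Oosp3 is higher along the component (r = 0.85, n = 9), and among SN oocytes r is 0.05 (n = 16).

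Among SN oocytes, the correlation of log2 CPM between the members was -0.83 in mouse D (rho = -0.96, n = 7; -0.69 without the 2 oocytes farthest in Nlrp4c) and 0.10 in mouse C (rho = 0.07, n = 9; -0.21 without the farthest 2). The difference between the mice was not tested. In NSN oocytes r was -0.19 (rho = -0.10, n = 9) and -0.50 without the farthest 2. With log2 total counts, Oosp3 had r = 0.11 in NSN (n = 9) and 0.07 in SN oocytes (n = 16), or 0.37 and 0.08 without the farthest 2. Nlrp4c had r = 0.76 with log2 total counts among SN oocytes of mouse C (rho = 0.73, n = 9, and 0.64 without the farthest 2) and r = -0.01 among those of mouse D (n = 7). The part of depth in the level of Nlrp4c in mouse C was not tested.

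Oosp1, the neighbour and paralogue of Oosp3, was the other of the 2 genes, out of 4 of the oocyte secreted protein family, that had a named transcript (TCONS_00054390). It stood at 291 to 793 CPM in NSN oocytes, with a median of 552, and at 492.7 to 1294 CPM in SN oocytes, with a median of 936. It rose in SN with a log2 fold change of 0.79 (SE 0.16, edgeR adjusted p = 0.000574), although the study chose it on these samples too, which makes this no independent evidence. Of the SN oocytes, 11 of 16 were above every NSN oocyte. Its stage effect was 0.69 in mouse C and 0.91 in mouse D, and their difference of 0.22 (SE 0.30) did not pass (edgeR adjusted p = 0.948). That difference was 0.48 among oocytes within the NSN range of totals (edgeR adjusted p = 0.813) and from 0.034 to 0.45 when single oocytes were left out.

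Among oocytes of a stage, log2 CPM of Oosp1 and Oosp3 had r = 0.58 in NSN (rho = 0.58, n = 9; 0.45 without the 2 oocytes farthest in Oosp1) and r = 0.64 in SN (rho = 0.53, n = 16; 0.51 without the farthest 2). Within SN, r was 0.60 in mouse C (rho = 0.45, n = 9) and 0.62 in mouse D (rho = 0.18, n = 7). Without the farthest 2 these became 0.40 and 0.38. The count of Oosp3 over that of Oosp1 in the same oocyte, which does not depend on scaling, averaged 0.964 ± 0.323 over the 9 NSN oocytes (± SD) and 1.03 ± 0.252 over the 16 SN oocytes. It was lowest in NSN oocytes of mouse D, at 0.749 ± 0.304 (SD, n = 4), against 1.14 ± 0.237 (SD, n = 5) in NSN oocytes of mouse C, and it was 0.564 in the intermediate oocyte. Oosp1 in that oocyte was at 693 CPM, above 7 of 9 NSN oocytes and 4 of 16 SN oocytes, and of the pair it was Oosp3 that lay below the SN range there.

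**Figure D4:**
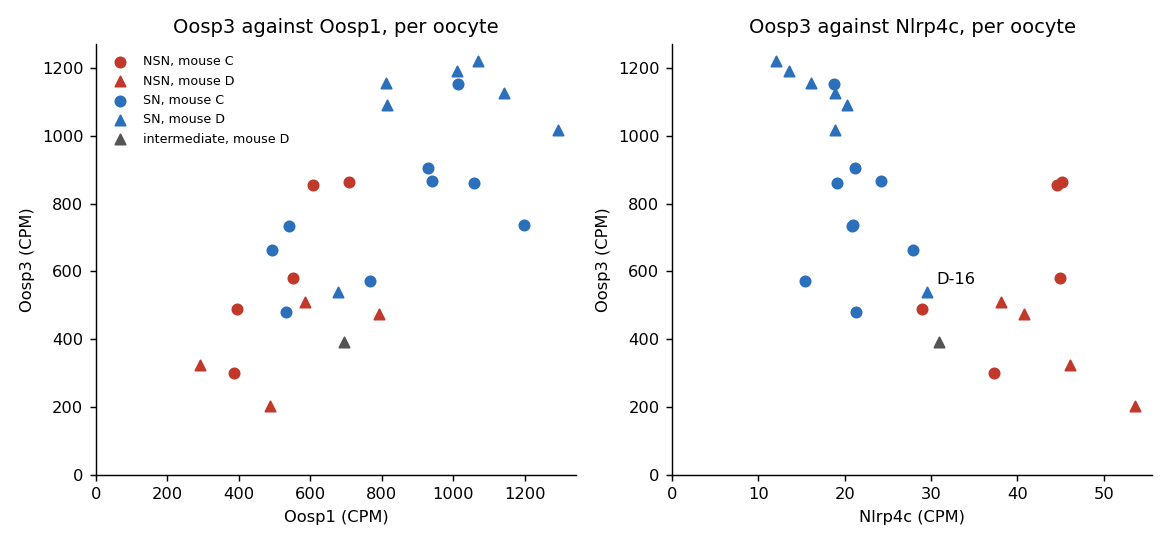
CPM of Oosp3 (vertical axis) against CPM of Oosp1 (left) and of Nlrp4c (right), 1 point per oocyte, with circles for mouse C and triangles for mouse D. On the log2 scale Oosp3 and Oosp1 had r = 0.58 in NSN and 0.64 in SN oocytes. Among SN oocytes of mouse D the rank correlation was weak (rho = 0.18, n = 7). SN oocyte D-16 lies beside the NSN oocytes in the right panel.

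The rest of the Nlrp family and other oocyte genes could be followed only where a transcript carries a symbol, which held for 511 transcripts, 366 of them named from the study's own lists. Of 115 genes in 11 lists, 17 had a named transcript and 16 of these were tested. All 14 of the tested genes other than the members passed the edgeR test, 9 lower and 5 higher in SN, against 8.02% and 5.44% of all transcripts tested. They come from lists that the study chose on these samples, so this count is no independent evidence. The median log2 fold change of the 16 was -0.58, and that of all transcripts tested was 0.01.

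In the Nlrp family, 2 of 19 genes were named and tested. Nlrp12, an NLR gene known from the control of inflammation, fell by 1.85 on the log2 scale (SE 0.55, edgeR adjusted p = 0.0207), its mean being 2.18 ± 1.17 CPM over 9 NSN oocytes (± SD) and 0.523 ± 0.822 CPM over 16 SN oocytes. It had counts in all 9 NSN and in 7 of 16 SN oocytes. The study listed Nlrp12 among transcripts missing in SN, chosen by detection in these oocytes, so this pattern and its fall are descriptions. Its call was lost among oocytes within the NSN range of totals, which kept 6 SN oocytes (log2 fold change -2.07, edgeR adjusted p = 0.0729), and without NSN oocyte C-8 (-1.68, edgeR adjusted p = 0.0548). Nlrp4c, which came from the study's other list, of transcripts that separate the stages, was detected in every oocyte.

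Among egg coat genes, 2 of 4 were named, and both fell. Zp3, a zona pellucida protein, had a log2 fold change of -0.61 (SE 0.14, edgeR adjusted p = 0.00233). Astl, the protease that hardens the zona after fertilisation, had one of -0.72 (SE 0.13, edgeR adjusted p = 0.000172). The oocyte transcription factor Nobox fell too (-0.47, SE 0.11, edgeR adjusted p = 0.00335), as the 1 named gene of its list of 6.

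Zbed3, the 1 named gene of 8 of the subcortical maternal complex and its partners, rose (0.50, SE 0.13, edgeR adjusted p = 0.00962). Of 16 genes in oocyte-expressed clusters, 3 were named. Tcl1b3 (0.35, SE 0.09) and the Bcl2-family gene Bcl2l10 (0.41, SE 0.08) rose, whereas Oog4 fell (-0.55, SE 0.12), each by edgeR with adjusted p = 0.00440, 0.000703 and 0.00129. The calls of Zbed3 and Tcl1b3 were lost among oocytes within the NSN range of totals, with log2 fold changes of 0.53 and 0.31 (edgeR adjusted p = 0.0618 and 0.114).

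Of 14 genes of mRNA storage and decay, 3 were named. Patl2, an RNA-binding translational repressor of oocytes, fell by 1.11 on the log2 scale (SE 0.15, edgeR adjusted p = 2.33e-06), and all 16 SN oocytes were below every NSN oocyte. Lsm1, of the complex that promotes decapping, fell by 0.68 on the log2 scale (SE 0.15), and Cnot6l, a deadenylase, rose by 0.50 (SE 0.13), with edgeR adjusted p = 0.00177 and 0.00999. Of 11 genes of germline genome defence, 2 were named and both fell, Gpat2 with a log2 fold change of -1.63 (SE 0.30, edgeR adjusted p = 0.00023) and Tex19.2 with -2.01 (SE 0.26, edgeR adjusted p = 1.8e-06). No gene of the lists of growth factors (6 genes) or of other maternal-effect genes (10) was named.

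**Figure D5:**
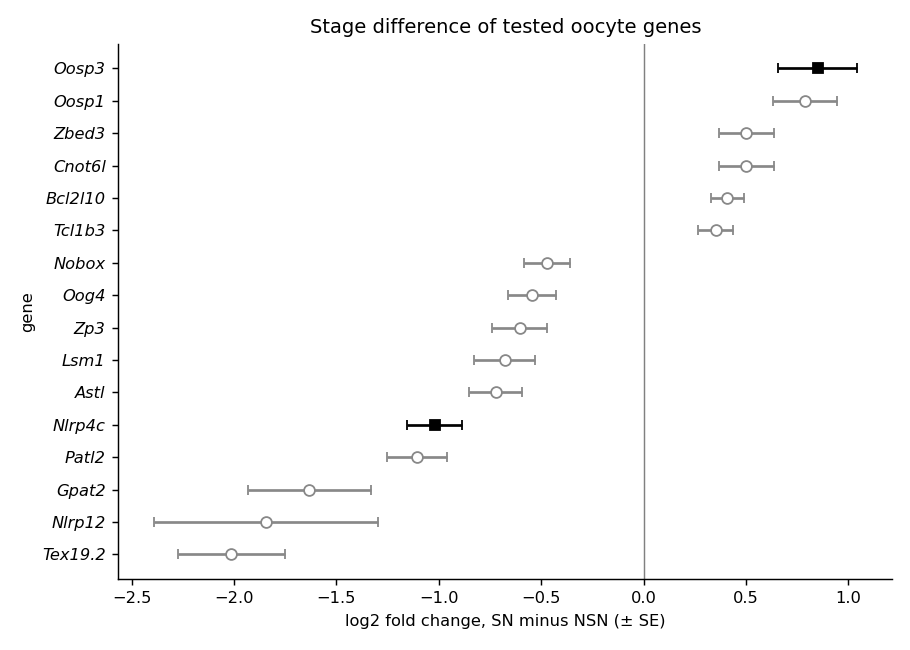
Log2 fold change, SN minus NSN (horizontal axis), with bars of ± 1 SE, of the 16 tested oocyte genes (vertical axis), with the members as filled squares. Nlrp4c stands at -1.02 and Oosp3 at 0.85, the highest of the 16.

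The identity of the cells was checked against markers. Of 12 oocyte markers, the 5 that were named (Astl, Bcl2l10, Nobox, Oosp1, Zp3) had between 438 and 14224 counts in every oocyte. Of 20 granulosa and cumulus cell markers, only Amh was named, which the study listed among transcripts missing in SN. Amh had 0 to 31 counts in NSN oocytes, in 7 of 9 above 0, and 0 to 10 in SN oocytes, in 4 of 16 above 0, and was too low to be tested. The other 19 were not analysed here, and the part of RNA from other cells in the differences of the members was not tested.

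The genes most like each member were taken from the transcripts with a symbol by Pearson's r of log2 CPM. Over all 25 NSN and SN oocytes, which includes the difference between stages, Nlrp4c was most like Hsph1 (a chaperone, r = 0.91, the highest of all 16656 other transcripts), the zinc finger gene Zfp707 (0.87) and Tex19.2 (0.87). Both ways of choosing them, this correlation and the study's list, used the stages, so their log2 fold changes, SN minus NSN, are descriptions: -0.99 (SE 0.10) for Hsph1 and -3.14 (SE 0.23) for Zfp707. Oosp3 was most like Oosp1 (0.78), Smim20 (0.68) and Tcl1b3 (0.67), and 12 transcripts without a symbol had a higher r than Oosp1.

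With the stage means removed, the highest values for Nlrp4c were 0.61 for Hsph1, 0.58 for Snapc2, a subunit of the complex that drives small nuclear RNA genes, and 0.55 for Jade3. Those for Oosp3 were 0.60 for Mgat4c, 0.60 for Oosp1 and 0.53 for Gm18284. Hsph1 was thus at rank 27 for Nlrp4c and Oosp1 at rank 172 for Oosp3, of 16656 other transcripts. Before the best named ones, Hsph1 and Mgat4c, came 26 and 161 transcripts without a symbol. The log2 fold changes, SN minus NSN, of the genes from the study's lists were -1.35 for Mgat4c, -1.54 for Snapc2, -2.41 (SE 0.57) for Jade3 and 0.43 for Smim20. Jade3 was near the floor, at 2.30 ± 1.35 CPM over NSN and 0.332 ± 0.522 CPM over SN oocytes (± SD). Snapc2 was low too, at 11.3 ± 5.97 and 3.68 ± 1.73 CPM. Their likeness to Nlrp4c therefore rests on few counts. Gm18284, which is on neither list, did not pass (-0.10, edgeR adjusted p = 0.788).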

How the data were processed

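RNA of 26 single GV oocytes was analysed. The authors trimmed reads with Trim Galore, aligned them to GRCm38 with HISAT2 2.1.0 and quantified them with SeqMonk against transcripts annotated earlier in mouse oocytes. Per transcript and oocyte, 1 raw count was deposited, with no normalization. A deposited table of their own DESeq2 comparison (mean signal, log2 fold changes and p-values) was not used. There were 0 unused columns of samples. Only polyadenylated RNA was captured, and no molecular identifiers were used, so intervals cover counting error only.

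CPM were formed by the column total. edgeR 4.0.16 (R 4.3.3; TMM, quasi-likelihood test) was run on the transcripts that reached 3 counts in 9 or more oocytes. P-values were adjusted after Benjamini-Hochberg and 0.05 was the limit for a call. Each SE of an edgeR log2 fold change was its absolute value over the square root of the quasi-likelihood F statistic. Terms were stage alone, stage and mouse, or both with their interaction, and the intermediate oocyte was left out. Log2 CPM used a prior count of 2. Exact permutation tests used Python 3.11.15 and scipy 1.17.1. DESeq2 1.42.0, other scalings, filters and depths, a mouse block and leaving out each oocyte were alternatives. The code was tested on simulated data. No pair of the 156 pairs of oocytes of the same stage was identical.

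Members and lists were chosen with earlier results of these data known. Named genes were the members, every named gene of the Oosp, Nlrp, subcortical maternal complex, egg coat and granulosa lists, up to 3 of each other list, and the 3 most like each member.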

Additional observations from a re-analysis of the deposited data

Results flagged for a closer look

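Among NSN oocytes, Gpat2, a gene of germline genome defence, was at 30.7 CPM in oocyte D-14, farther from the other 8 oocytes than Dixon's test allows at the 95% level (gap over range 0.542, critical value 0.493 for 9 samples). The same test was made for 23 transcripts in NSN oocytes, and chance flags about 5% of groups. D-14 was also the NSN oocyte with the highest Nlrp4c (53.6 CPM) and the lowest Oosp3 (203 CPM), neither of which stood apart by this test (gap over range 0.340 for C-12, the farthest in Nlrp4c, and 0.147 for D-14 in Oosp3).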

How the results depend on the processing

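The log2 fold change of Nlrp4c, SN minus NSN, stayed between -1.14 and -1.004 under 7 alternatives and between -1.10 and -0.98 when single oocytes were left out, and that of Oosp3 between 0.81 and 0.92 and between 0.74 and 0.97. Transcripts called between stages numbered 2242, against 1017 among oocytes within the NSN range of totals, where 6 SN oocytes remained, and 1530 to 2577 without single oocytes. For mouse D against C, 6 calls became 107 with DESeq2, 53 without a filter, 1 within the NSN range of totals and 0 with library-size scaling or downsampling, and 0 to 23 without single oocytes (the cause was not tested). The mouse difference turned to 0.034 for Nlrp4c when downsampled and to -0.19 for Oosp3 within the NSN range of totals, and spanned -0.035 to 0.14 for Oosp3 without single oocytes. Within NSN, without single oocytes, it spanned 0.045 to 0.23 for Nlrp4c and -0.93 to -0.43 for Oosp3, with adjusted p of 0.286 to 0.786 and 0.114 to 0.452 by the exact permutation test. Within SN it spanned -0.33 to -0.13 for Nlrp4c and 0.36 to 0.59 for Oosp3, with adjusted p of 0.0480 to 0.415 and 0.0120 to 0.254 by the exact permutation test. The interaction of Oosp3 ranged from 1.15 to 1.32 over 6 alternatives (adjusted p from 0.265 to 0.716) and from 0.93 to 1.33 without single oocytes, and that of Nlrp4c from -0.72 to -0.27 and from -0.50 to -0.28. Jade3 and Nlrp12 gave no value with the stricter filter or after downsampling. No paired analysis was possible because each name, a letter with a number, belongs to a single oocyte, and the numbers that recur in both stages (12 and 14) do so under different letters. At 21 to 136 counts per oocyte, depth limits the comparison of single oocytes for Nlrp4c.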
